A study of Macrobrachium rosenbergii with 20 samples.

Results

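The transcripts described here are those found abundantly in the ovary of the giant freshwater prawn, Macrobrachium rosenbergii, and almost nowhere else among the tissues sampled. They number 98 of 30260 transcripts. RNA was sequenced from ovary, testis and the hepatopancreas of females and of males, all adult prawns of strain CMr1, with 5 libraries in each of the 4 groups and no treatment named in the labels. Members were chosen on N, the rounded count divided by a DESeq2 median-of-ratios size factor computed over all 20 libraries. A member had a median N of at least 200 in ovary and a median under 10 in each of the other 3 groups. All transcripts that qualified were kept, since they were fewer than the limit of 300 in the rule. The rule used the levels of all 4 groups, so the difference between ovary and the other groups is the way the members were picked, and it is given below as values with no test.

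The hepatopancreas is the digestive gland of crustaceans, and in this prawn it is also a main source of the yolk protein precursor vitellogenin, which growing oocytes take up from the hemolymph. Oocytes themselves load maternal messenger RNA for the early embryo and build up coat and cortical materials, so the ovary of an egg-laying animal commonly holds a set of very abundant messages of its own. Each ovary library is bulk RNA from whole tissue, in which germ cells and follicle cells are mixed, and the labels give no stage of ovarian maturation. A transcript missing from a bulk library may reflect few cells of a type or little RNA per cell, and these cannot be told apart.

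No gene names come with the transcript IDs, and none of the IDs (0 matches) was found among 31758 genes listed for assembly ASM4041242v1. Members are therefore known by their IDs, lengths and counts, marker genes of the tissues could not be looked up, and no sequence is shown. Each ID starts with a class, HQ or LQ, then has either Female or Male, and ends with a number after the letter f and a length in bases. In the naming used by PacBio isoform-sequencing software, the number after f counts full-length reads, although the files do not say what it stands for here.

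Library totals ran from 8670640 to 13232366 counts in ovary and from 12822717 to 17102848 in testis, while female hepatopancreas libraries held 9025144 to 15592052 and male ones 13910322 to 18355650. The mean size factor was 2.12 for ovary, 1.21 for testis, 0.726 for female and 0.608 for male hepatopancreas, so 1 count is worth more N in hepatopancreas than in ovary. Within testis it ran from 0.621 in testis 1 to 2.17 in testis 5, so 1 count is worth more N in testis 1 than in testis 5. Testis 5, female hepatopancreas 4 and male hepatopancreas 5 held more counts on the members than any other library of their groups. Without these 3 libraries 104 transcripts qualified, and 95 of the 98 were among them; this check was chosen after the data were seen.

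The 98 members took 22.8% ± 3.45 of all ovary counts (SD, n = 5). Their share was 21.5% in ovary 1, 23.5% in ovary 2, 18.1% in ovary 3, 27.6% in ovary 4 and 23.4% in ovary 5, lowest in ovary 3 and highest in ovary 4. Members span a wide range of N, which is not divided by length: 34 had a median N of at least 10000, another 40 lay between 1000 and 10000, and 24 lay between 200 and 1000. A few of them carried most of the counts. The 10 of highest ovary median held 48.4% ± 1.75 of the members' counts, the 20 highest held 67.8% ± 2.16 and the 50 highest held 94.1% ± 1.1 (SD, n = 5 ovaries).

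Per kilobase of transcript, 7 of the 10 most abundant transcripts of the ovary were members, as were 15 of the 20 and 31 of the 50 most abundant. The other 19 of those 50 were mostly abundant in another tissue too. The median N in their highest other group had a middle value of 54083, and 1 of the 19 stayed under 200 there. The highest member per kilobase, transcript_HQ_Female_transcript14064/f5p0/1257, ranked 3 among all transcripts. It had 91304, 102545, 69225, 146608 and 105098 N per kilobase in ovaries 1 to 5, highest in ovary 4 and lowest in ovary 3. In total it had 1322473 counts in ovary, against 9 in female hepatopancreas and 0 in both testis and male hepatopancreas. A count of 0 over the testis libraries allows a level of up to 0.0402 CPM (counts scaled to library size), and over the male hepatopancreas libraries up to 0.0382, where the limit of 3 counts covers counting error only. The second member, transcript_HQ_Male_transcript28731/f6p0/856, ranked 4, with 60967, 68391, 56609, 79245 and 69963 N per kilobase in ovaries 1 to 5. The spread was narrower, with ovary 4 again highest and ovary 3 lowest. It summed to 597278 counts in ovary, against 4 in testis, 2 in female and 0 in male hepatopancreas.

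**Figure D1:**
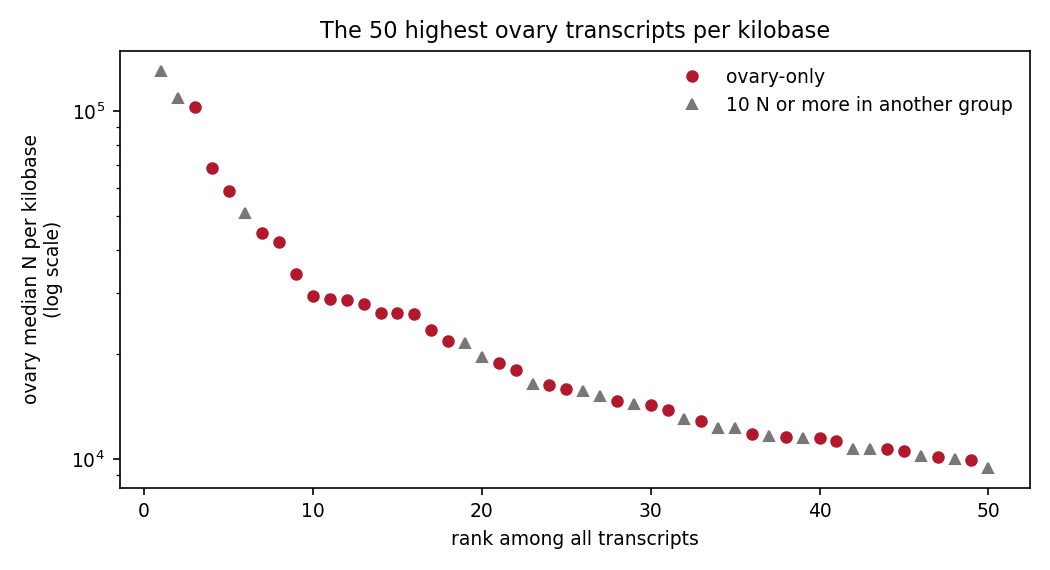
Ovary median N per kilobase of length (log scale) for the 50 highest transcripts of the ovary, by rank among all transcripts; circles are the 31 ovary-only members and triangles the 19 transcripts with a median N of 10 or more in another group. Members fill ranks 3, 4 and 5 and most of the ranks down to 18.

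Outside the ovary the members were close to absent, but not evenly so. All 98 had counts in every ovary library, against 9 to 43 members per testis library, 15 to 28 per female hepatopancreas library and 4 to 11 per male hepatopancreas library. Over whole groups, 55 members had at least 1 count in testis, 52 in female and 20 in male hepatopancreas, and 25 had none in any of the 15 libraries outside ovary. The most abundant of these 25 was transcript_HQ_Male_transcript24463/f3p0/1117, with 256056 counts over the ovaries. Members together made up 181311 to 276214 CPM in ovary libraries, against 2.35 to 1366 CPM in testis libraries. The female hepatopancreas libraries held 2.13 to 62.4 CPM of them and the male ones 0.650 to 7.79. The high ends of the testis and both hepatopancreas ranges came from testis 5, female hepatopancreas 4 and male hepatopancreas 5. Without those 3 libraries the highest values were 62.1 CPM in testis 4, then 5.87 (female hepatopancreas 1) and 3.24 (male hepatopancreas 4).

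**Figure D2:**
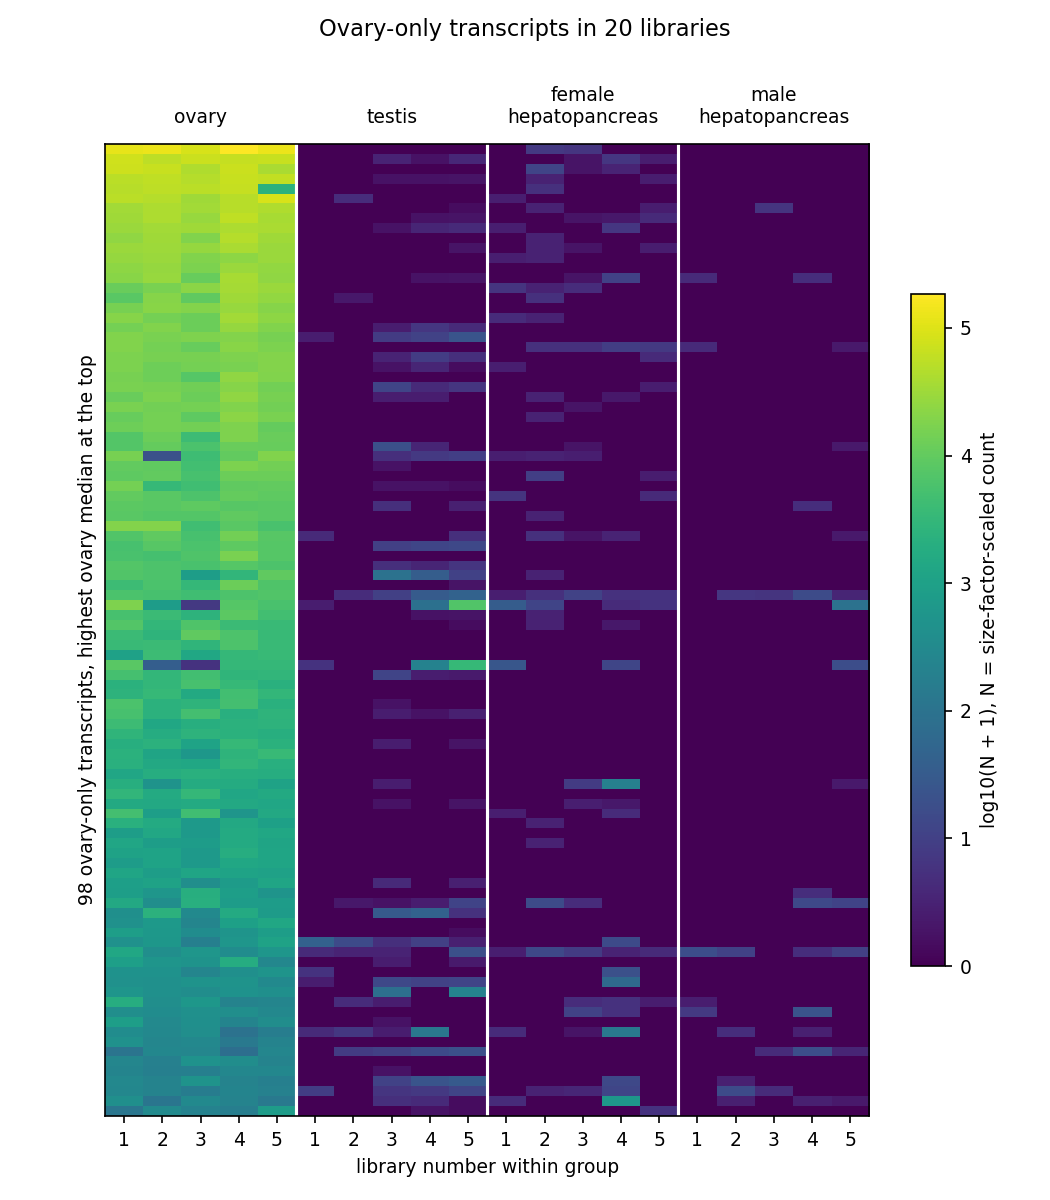
Heat map of log10(N + 1) for the 98 members (rows, highest ovary median at the top) in the 20 libraries (columns, numbered within ovary, testis, female hepatopancreas and male hepatopancreas). The 5 ovary columns are bright over most of their height, with a few dim cells. In ovary 3, 96 of the 98 members reached 10 N. Most cells of the other 15 columns are at or near 0, with single brighter cells in testis 5 and female hepatopancreas 4.

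Across the 98 members, Spearman's rho between the ovary median N and the summed N of a group was -0.15 for testis, 0.10 for female hepatopancreas and -0.23 for male hepatopancreas. These are descriptions across transcripts that share libraries, and most of the values outside ovary are at 0. In all, 74 members stayed under 10 N in each of the 15 other libraries and 24 reached 10 N in at least 1. For 9 of these 24 the highest library was testis 5, for 5 it was female hepatopancreas 4 and for 4 it was testis 3.

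Most of the members' counts in testis came from transcript_HQ_Female_transcript5320/f10p0/1884 and transcript_HQ_Female_transcript4977/f15p0/1925, and most of those from testis 5. The first had 17475, 804, 6.56, 7469 and 5788 N in ovaries 1 to 5, against 1.61, 0, 0, 87.4 and 6876 N in testes 1 to 5. The second had 8323, 37.3, 5.02, 3158 and 3161 N in ovaries 1 to 5, against 4.83, 0, 0, 212 and 3440 N in testes 1 to 5. Testis 5 thus held both near the levels of ovaries 4 and 5, while ovary 3 held less of both than testis 4, and the groups overlapped. In hepatopancreas the same 2 transcripts were highest in female hepatopancreas 1, at 33.6 and 24.7 N, and in male hepatopancreas 5, at 96.2 and 16.7 N. They were also the members that varied most between ovaries, with a coefficient of variation of 1.11 for the first and 1.16 for the second. The N ratio of the first to the second was 2.10, 21.5, 1.31, 2.37 and 1.83 in ovaries 1 to 5, against 0.41 in testis 4 and 2.0 in testis 5. In hepatopancreas, where counts were few, it was 1.36 in female 1, 0.30 in female 4 and 5.77 in male 5. Both transcripts hold fractional counts, described below, so their levels and their ratio may rest on how reads were shared out. What sets testis 5 apart was not tested. With them left out, the members made up 59.0 CPM in testis 5, against 34.0 in testis 4, 30.5 in testis 3, 2.35 in testis 2 and 2.85 in testis 1.

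**Figure D3:**
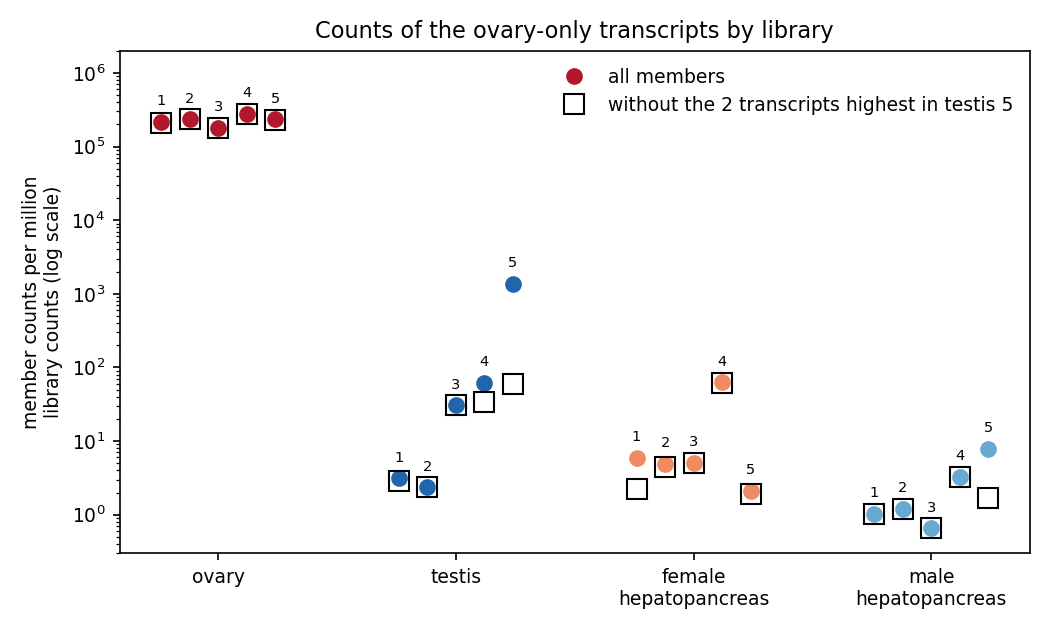
Summed CPM of the 98 members (log scale) in each library of ovary, testis, female hepatopancreas and male hepatopancreas, with library numbers above the points; open squares leave out the 2 transcripts highest in testis 5. Ovary libraries lie between 181311 and 276214, and testis 5 lies at 1366 with all members and at 59.0 without those 2.

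Female hepatopancreas 4 held several further members at levels not seen in the other hepatopancreas libraries, and the 2 highest of them are described first. For transcript_HQ_Female_transcript5633/f2p0/1857, N was 425, 113, 315, 221 and 133 in ovaries 1 to 5, against 621 in female hepatopancreas 4 and at most 3.53 in the other 9 hepatopancreas libraries. That library exceeded every ovary for this transcript. For transcript_HQ_Male_transcript21877/f9p0/1216, N ran from 496 to 1997 in ovary, against 196 in female hepatopancreas 4 and at most 7.16 in the other hepatopancreas libraries. Only 6 members reached 100 N in any library outside ovary. Beside the 4 already named these were transcript_HQ_Female_transcript1857/f7p0/2484, at 387 to 561 N in ovary and 215 N in testis 5, and transcript_HQ_Female_transcript20484/f11p0/854, at 95.3 to 390 N in ovary, 121 N in testis 4 and 130 N in female hepatopancreas 4. The last 2 were chosen after their values were seen.

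Several properties that the rule did not name set the members beside the 2917 other transcripts with an ovary median N of at least 200. Since N is not divided by length, length can still bear on which transcripts meet the limits of the rule. Members were shorter, with a median length of 1267 bases and quartiles of 1027 and 1722, against a median of 1755 and quartiles of 1254 and 2363. Only 10 of 98 members (10.2%) were longer than 2000 bases, against 1117 of 2917 (38.3%). All members carried the class HQ, as did nearly all of the others, with 17 of 2917 in the class LQ. The number after f was 2 for 48 members (49.0%), against 870 of the others (29.8%). It was 196 for transcript_HQ_Female_transcript11262/f196p0/1411, whose ovary median was 816 N, and at most 19 for every other member. These are descriptions of 2 sets that differ in how they were picked, and they were not tested.

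The word Male stood in the ID of 26 members (26.5%), against 96 of the 2917 others (3.29%). Few Male IDs are used at all in these libraries, with 351 holding any rounded count and 122 reaching an ovary median N of 200. Of those 122, 26 (21.3%) were ovary-only, against 72 of 2893 with the word Female (2.49%). Of the 20 members of highest ovary median N, 10 had the word Male. Members with that word took 41.5% ± 2.24 of the members' counts (SD, n = 5 ovaries), from 38.6% to 44.0% between ovaries. In turn, ovary-only members took 56.4% ± 6.74 of all counts on Male IDs in ovary. Among the 193 transcripts that the same rule picks when turned round for testis (median N of at least 200 in testis and under 10 in the other 3 groups), 2 (1.04%) had the word Male. The labels do not state what the words mark.

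The members' levels varied somewhat more between ovaries than those of the other abundant ovary transcripts, a difference that was not tested. The coefficient of variation of N over the 5 ovaries had a median of 0.36 and quartiles of 0.18 and 0.51 among members, against a median of 0.24 and quartiles of 0.17 and 0.35 among the 2917 others. The 193 testis-only transcripts varied over the 5 testes with a median of 0.84. Their share of testis counts ran from 22.3% to 70.9%, a wider range than the 18.1% to 27.6% of the ovary-only members in ovary. Of the 98 members, 34 differed less than 2-fold between their highest and lowest ovary, 59 between 2-fold and 10-fold, and 5 at least 10-fold.

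The steadiest members were transcript_HQ_Male_transcript10038/f2p0/1747, with 8764, 8431, 8978, 7793 and 8265 N in ovaries 1 to 5, and transcript_HQ_Female_transcript7300/f2p0/1711, with 1542, 1531, 1618, 1491 and 1302 N. Their coefficients of variation were 0.054 and 0.079. The 2 are partners in 1 of the pairs of shared fractional counts described below, with the first holding 83.9% to 86.4% of their sum, so they are not independent examples. Both had 9 or fewer counts in testis and 3 or fewer in either hepatopancreas group, summed over 5 libraries.

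Ovary 4 held the highest N for 46 of 98 members (46.9%) and ovary 3 the lowest for 48 (49.0%). The same 2 libraries stood at the ends for the other abundant transcripts, with ovary 4 highest for 1434 of 2917 (49.2%) and ovary 3 lowest for 1379 (47.3%), so for the members as a whole this order is near that background. Relative to each transcript's ovary median, the median member differed by 0.20 in ovary 4 and -0.28 in ovary 3 on a log2(N + 1) scale, against 0.18 and -0.20 for the others. Among the 20 members of highest ovary median N, ovary 4 was highest for 16 and ovary 3 lowest for 12. Ovary 1 was highest for 23 members (23.5%), against 373 of the others (12.8%), and only 2 of those 23 were among those 20.

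Some members shared fractional counts with another transcript. The deposited counts are estimates, and 75 members held whole numbers in all 20 libraries, to within 1e-06. The other 23 held decimals in at least 3 libraries. For 17 of these, exactly 1 partner was found whose decimals added up to a whole number with theirs in every library, to within 0.011, as when the reads of both are shared out between them. This gave 11 pairs, 6 of 2 members and 5 of a member and a transcript that is not one. In 5 of the 11 pairs one ID had the word Female and the other the word Male. For the 6 remaining members no single partner was found, and transcript_HQ_Female_transcript5320/f10p0/1884 and transcript_HQ_Female_transcript4977/f15p0/1925 are among them. Levels of single transcripts in such pairs, and of these 6 members, are uncertain, since they may rest on how reads were shared out.

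In several pairs the partners changed places between ovaries while their sum stayed nearly level, and in others the sum varied as well. The pairs named here were chosen after their values were seen. Transcript transcript_HQ_Male_transcript7613/f7p0/1863 had 50937, 56205, 52154, 63090 and 2452 N in ovaries 1 to 5. Its partner transcript_HQ_Male_transcript6903/f5p0/1901, also a member, had 53705, 47427, 32844, 49983 and 89792 N. Ovary 5 was thus lowest for the first and highest for the second. The sum ranged from 84999 to 113072 N, with a coefficient of variation of 0.11, against 0.54 and 0.39 for the single transcripts.

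A similar exchange was seen for transcript_HQ_Female_transcript10478/f2p0/1476, with 15107, 19.2, 4190, 10222 and 18265 N in ovaries 1 to 5. Its partner transcript_HQ_Male_transcript14117/f2p0/1558 had 1589, 21632, 16786, 4658 and 1013 N and was no member, as its testis median of 15.3 N was above the limit. The member's part of the sum ran from 0.0888% in ovary 2 to 94.7% in ovary 5, while the sum had a coefficient of variation of 0.15. For transcript_HQ_Female_transcript14802/f2p0/1257 the part ran from 10.2% in ovary 3 to 97.2% in ovary 5, with transcript_HQ_Female_transcript14113/f2p0/1297 as the partner, and the sum had a coefficient of variation of 0.12. In 6 of the 11 pairs the sum had a lower coefficient of variation over the ovaries than either partner. Of the 5 members that differed at least 10-fold between ovaries, 3 are these, and the other two are the transcripts that reached testis 5. Some other pairs had no level sum. For transcript_HQ_Female_transcript15074/f2p0/1242 the part ran from 45.3% in ovary 2 to 98.8% in ovary 1, with transcript_HQ_Female_transcript15861/f2p0/1203 as the partner. That sum ran from 548 to 1430 N, with a coefficient of variation of 0.39, against 0.32 for the member alone. For the pairs of transcript_HQ_Female_transcript24242/f2p0/520 and transcript_HQ_Female_transcript11262/f196p0/1411 the sums had 0.58 and 0.65. Outside the pairs the median coefficient of variation of members was still 0.36, over 81 members.

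**Figure D4:**
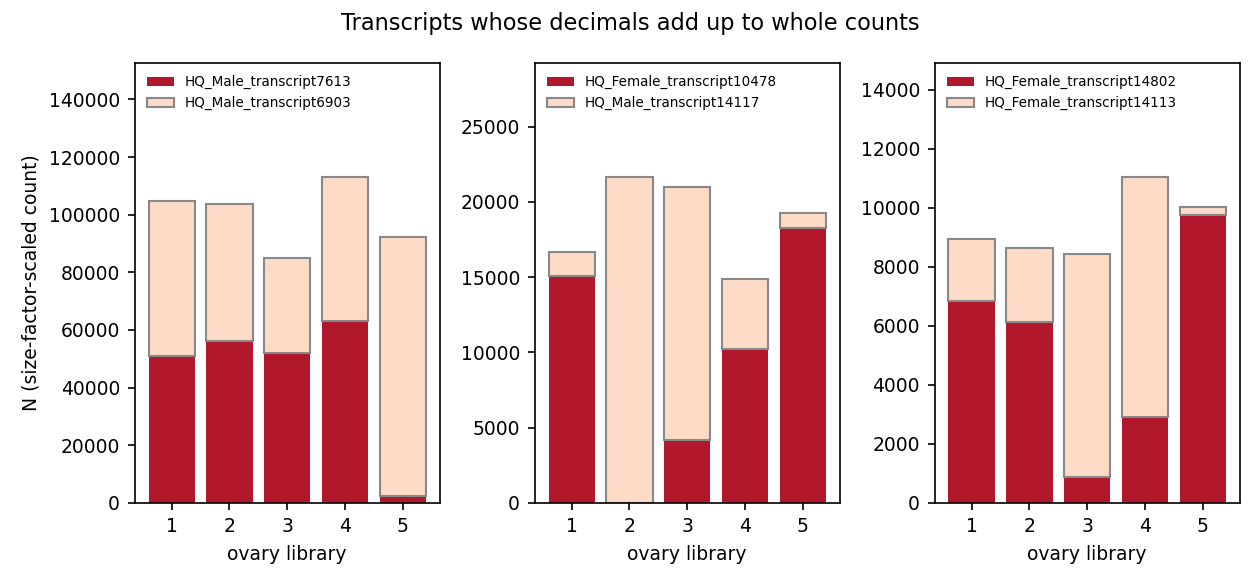
Stacked bars of N in ovaries 1 to 5 for 3 pairs of transcripts whose decimals add up to whole counts; the dark part is the member named first and the light part its partner. The 3 pairs are those with a member that differed at least 10-fold between ovaries. The split changes from ovary to ovary, as in ovary 5 of the left panel and ovary 2 of the middle panel, while the bar heights stay within 84999 to 113072 N on the left.

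Whether members follow growth was asked through the weight gain label, which the rule did not use. It was 2.14, 5.71, 3.96, 4.98 and 7.52 for ovaries 1 to 5, in a unit the labels do not state. A slope on this label was fitted over the 5 ovary libraries for 5694 transcripts, and all 98 members had enough counts for it. No member passed an adjusted p of 0.05 in edgeR's quasi-likelihood test, as none of all tested did (0%), and the smallest adjusted p was 0.962. At an unadjusted p under 0.05 stood 8 members, 4 with a slope above 0 and 4 below, or 8.16% of members against 4.34% of all transcripts tested. Slopes were above 0 for 49 members and below 0 for 49, with a median of -0.0012 on the log2 scale per unit of weight gain, and ran from -0.55 to 0.49. DESeq2 called 44 of the 5694, of which 2 were members.

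Among slopes above 0, the smallest p was that of transcript_HQ_Female_transcript8457/f9p0/1621, with 114, 327, 219, 174 and 818 N in ovaries 1 to 5. Its slope was 0.49 ± 0.10 log2 per unit (SE, edgeR adjusted p = 0.962), and the highest value was that of ovary 5, which has the highest weight gain. DESeq2 gave it a slope of 0.50 ± 0.12 and an adjusted p of 0.0159. Without ovary 5 the edgeR slope was 0.36 (unadjusted p = 0.109), and leaving out each ovary in turn gave 0.36 to 0.54. Next came transcript_HQ_Female_transcript15325/f2p0/1222, a member with no count outside ovary, with 1044, 4055, 1352, 3193 and 3485 N. Its slope was 0.38 ± 0.11 (SE, edgeR adjusted p = 0.962), and ovaries 2, 4 and 5 lay above ovaries 1 and 3.

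Below 0, transcript_HQ_Female_transcript13348/f2p0/1338 had 1941, 399, 625, 230 and 254 N in ovaries 1 to 5, with ovary 1, of lowest weight gain, far above the rest. Its slope was -0.55 ± 0.12 (SE, edgeR adjusted p = 0.962), and DESeq2 gave -0.55 ± 0.15 with an adjusted p of 0.0483. Without ovary 1 the edgeR slope was -0.34 (adjusted p = 0.996), and leaving out each ovary in turn gave -0.73 to -0.34. It shares its decimals with the member transcript_HQ_Female_transcript11262/f196p0/1411, so this level may depend on the split. The sum of both was 3420, 793, 2700, 1046.5 and 1058 N in ovaries 1 to 5, so ovary 3 was also high. The partner's part of that sum was lowest in ovary 1, at 43.2%, and highest in ovary 4, at 78.0%. The slope of transcript_HQ_Female_transcript5633/f2p0/1857, whose ovary values stand above, was -0.37 ± 0.10 (SE, edgeR adjusted p = 0.962). These slopes rest on 5 libraries, and a p that misses the threshold does not show that levels are unrelated to weight gain.

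**Figure D5:**
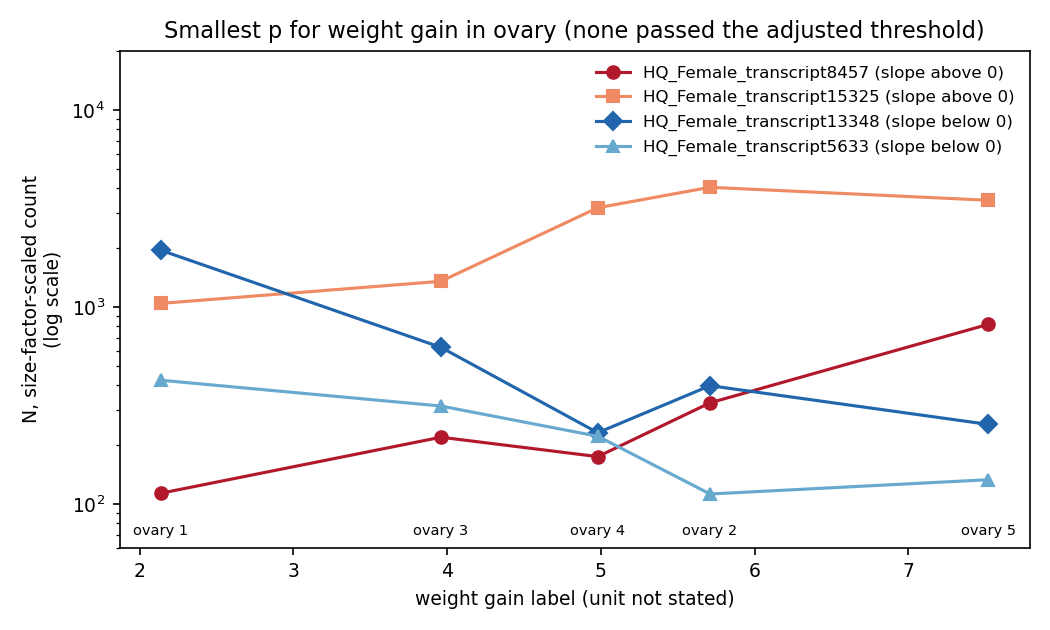
N (log scale) in the 5 ovary libraries against the weight gain label (unit not stated) for the 2 members with the smallest p in each direction, lines joining the libraries of 1 transcript. Slopes of 2 members lie above 0 (0.49 and 0.38 log2 per unit) and of 2 below (-0.55 and -0.37), and none passed the adjusted threshold in edgeR.

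With the filter used here, the members entered no test among the other 3 groups. Between female and male hepatopancreas, 289 of 6582 transcripts were called by edgeR (4.39%), 2.19% as higher and 2.2% as lower in female. Leaving out 1 library gave 0 calls in 7 of 10 fits (without female 2, 4 or 5 or male 1, 2, 3 or 4), 2 without female 1, 616 without female 3 and 740 without male 5. Between testis and male hepatopancreas 3411 of 7094 were called (48.1%), 25.1% as higher and 23% as lower in testis. No member was among the transcripts tested in either comparison, because none had 10 counts in at least 5 of the 10 libraries. Fits with another filter, in which members were tested, are given under the processing alternatives. As values, the members summed to 24679 counts in testis, 1188 in female and 206 in male hepatopancreas, out of totals of 74642123 in testis, 64563277 in female and 78562728 in male hepatopancreas.

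At the edges of the rule, the member of lowest ovary level was transcript_HQ_Female_transcript8457/f9p0/1621, at a median of 219 N in ovary, and the highest transcript just outside was transcript_HQ_Female_transcript2219/f2p0/2384, at 191 N. For the upper limit, transcript_HQ_Female_transcript4604/f2p0/1979 was inside at a testis median of 9.99 N, with 456 N in ovary. Just outside, transcript_HQ_Female_transcript15864/f2p0/1199 had a testis median of 10.5 N, with 3566 N in ovary.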

How the data were processed

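RNA-seq libraries from ovary, testis, female hepatopancreas and male hepatopancreas (5 each) were made with a directional kit, per the labels' protocols. The authors deposited estimated counts for each transcript, not normalised, beside its length. Per the submitters' processing notes, Bowtie 0.12.2 and DESeq 1.10.1 were used, in roles that are not stated. How counts were made, and on which transcript set, is not given in the sources used here. Estimated counts were rounded to whole numbers. N is the count over a median-of-ratios size factor, from the 5239 transcripts with counts in all 20 libraries. Tests used edgeR 4.0.16 (quasi-likelihood, TMM) in R 4.3.3 on transcripts that reached 10 counts in 5 or more of the libraries fitted, with Benjamini-Hochberg adjustment over all of them, called under 0.05. DESeq2 1.42.0 was an alternative. Scripts were tested on simulated data.

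The labels do not say whether replicates are separate animals, so p-values measure only the spread between these samples. Same-numbered testis and male hepatopancreas libraries deviated together (correlation 0.16 to 0.27 across transcripts in 5 of 5 pairs). The main fits did not use the number, and only the replicate block among the processing alternatives treated it as a pairing. The weight gain labels differ in 5 of 5 of the testis and male hepatopancreas pairs, so a shared animal is not established. With testis named first, they were 2.83 against 3.69 in pair 2, 2.61 against 1.61 in pair 3 and 1.48 against 2.83 in pair 4. They were close in pair 1, at 2.05 against 2.06, and in pair 5, at 2.74 against 2.77. Between same-numbered ovary and female hepatopancreas libraries the correlation ran from -0.097 in pair 4 to 0.38 in pair 5. Members and lists were chosen with earlier results of these data known. Transcripts named are those of highest level per kilobase, smallest p for weight gain, and most and least variable between ovaries, at most 2 each. Those highest in a single testis or hepatopancreas library, and those at the rule's edges, were also named, at most 2 each. The most abundant member with no count outside ovary and the member with the highest number after f were named outside this scheme. Other exceptions are stated.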

Additional observations from a re-analysis of the deposited data

Results flagged for a closer look

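In a group of 5 libraries, a value was marked when its gap to the nearest other library exceeded 0.71 of the group's range (Dixon's limit). Chance marks about 1 in 20 groups when the groups are not picked by their values. Of the 22 groups of values examined, 8 were marked. Apart from the summed levels, these groups were picked by their values. The transcripts examined in testis and hepatopancreas were picked because a single library was high. The 8 marks therefore cannot be set against the chance rate. The members' summed level was marked in testis, where testis 5 reached 1366 CPM, and in female hepatopancreas, where library 4 reached 62.4 CPM. In testis 5, transcript_HQ_Female_transcript5320/f10p0/1884 stood apart at 6876 N and transcript_HQ_Female_transcript4977/f15p0/1925 at 3440 N. In female hepatopancreas 4, transcript_HQ_Female_transcript5633/f2p0/1857 stood apart at 621 N and transcript_HQ_Male_transcript21877/f9p0/1216 at 196 N. Within ovary, transcript_HQ_Female_transcript13348/f2p0/1338 stood apart in ovary 1 at 1941 N. The part of transcript_HQ_Male_transcript7613/f7p0/1863 in its pair was 2.66% in ovary 5, far below the other ovaries. Over all 98 members, 7 (7.14%) had an ovary library that stood apart by this limit.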

How the results depend on the processing

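The number of qualifying transcripts was 98 with TMM scaling (97 of them shared), 120 with library totals (91 shared), and between 74 and 115 under the other thresholds and summaries tried. Leaving out 1 library gave 88 to 105. The members' share of ovary counts was 26.1% per kilobase, 20.3% without the highest member and 21.6% to 24% without 1 ovary. For weight gain, DESeq2 called 2 members in place of 0, and edgeR called 0 under every other setting tried, leaving out 1 ovary included. The replicate block gave 0 member calls between testis and male hepatopancreas and 0 between the hepatopancreas groups, where same-numbered libraries correlated between -0.05 and 0.09 and only share a number; no member was tested in these fits. Leaving out 1 library gave 0 in both comparisons, again with no member tested. Between the hepatopancreas groups, fitting all 4 groups together called 1 of 98 members, against 282 of 8043 transcripts (3.51%), and no filter called 0 of 55. Between testis and male hepatopancreas, no filter called 5 of 58 members (8.62%), against 3622 of 10053 transcripts (36.0%), and all 4 groups together called 20 of 98 (20.4%), against 3736 of 8043 (46.5%). Members enter the fit of 4 groups through their ovary counts. The rule also held each member to a median under 10 N in the groups compared. The member shares called here therefore follow in part from how members were picked, and no conclusion is drawn from them. Over all transcripts, calls between female and male hepatopancreas were 289 in edgeR, 1219 in DESeq2, 456 with a filter of 50 counts, and 0 with the block, without a filter or with library totals. Levels near 0 outside ovary are limited by depth.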
